A study of Gallus gallus with 6 samples.

Results

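The miR-15 and miR-16 family of microRNAs (miRNAs, short RNAs that guide Argonaute proteins to messenger RNAs and repress them) was examined in the abdominal fat depot of broilers (Gallus gallus). The members were taken by name: every row of the deposited table called miR-15a, miR-15b, miR-15c, miR-16 or miR-16c, with both arms and all copies, which gave 10 of 667 mature miRNAs. Names in the table carry the chicken prefix gga- (gga-miR-15b-5p, gga-miR-16-2-3p), which is left out below. Small RNA had been sequenced in 3 libraries labelled 50 IU vitamin E (vitamin E 1 to 3) and 3 labelled control (control 1 to 3), all at day 35. The feeding study began with 240 female chicks aged 1 day and spread them over 5 diets, whose DL-α-tocopherol acetate (an ester of vitamin E) was 0, 20, 50, 75 or 100 IU. The labels name neither the dose of the control diet nor the line of the birds, and they do not say whether a library came from 1 bird or a pool, so each p-value reflects the scatter of these libraries alone, which may be technical.

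Members of this family share their seed, the stretch near the 5′ end of a miRNA that pairs with target transcripts, and in mammals they repress cyclins, cyclin-dependent kinases and the survival factor BCL2. They are transcribed as pairs, one miR-15 hairpin beside one miR-16 hairpin, and each hairpin can give a mature RNA from its 5′ arm (5p) and from its 3′ arm (3p). In mammals the 5p RNA is the abundant guide and the 3p RNA the rare passenger. In mammalian fat cell precursors the family has been studied for its part in the halt and re-entry of the cell cycle that precede differentiation.

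In the chicken gene table of assembly GRCg7b the family sits in 3 gene pairs. MIR15A lies beside MIR16-1, MIR15B beside MIR16-2, and MIR15C beside MIR16C, each within 10 kb of its partner. The MIR15B and MIR16-2 pair lies within the span of SMC4, which encodes a condensin subunit that compacts chromosomes. miR-16-5p can come from both MIR16-1 and MIR16-2, whereas the 3p rows miR-16-1-3p and miR-16-2-3p are named by copy. No source used here says how reads that match several near-identical members were assigned, so the split of reads between miR-15a, miR-15b-5p and miR-15c-5p, and between miR-16-5p and miR-16c-5p, is uncertain.

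Library depth was 5844435 to 7062595 counts in the vitamin E group and 5028671 to 7357204 in the controls. Values are CPM, counts divided by the library size and multiplied by 1e+06, on library sizes scaled by edgeR's TMM factors, which ran from 1.01 to 1.05 in the vitamin E libraries and from 0.860, in control 1, to 1.03 in the controls. Of the names on a list of fat cell and stromal miRNAs, 4 of 6 matched rows, none of their 8 rows was at 0 in all libraries, and they summed to 256360 to 277510 CPM with vitamin E and 292810 to 313882 CPM in control. These groups did not overlap, but on the deposited TPM they did, at 270141 to 291074 with vitamin E and 269064 to 324257 in control; of the 8 rows, 3 had a log2 fold change above 0 and 5 below. The largest part of the sum was miR-26a-5p, which other tissues also express. miR-9-5p was the 1 miRNA of 238 tested, 0.42%, whose adjusted p lay under 0.05 (higher with vitamin E, log2 fold change 2.24).

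The 10 members together held 1.21%, 1.26% and 0.846% of all counts in vitamin E 1, 2 and 3, and 0.999%, 1.30% and 1.24% in control 1, 2 and 3. The means were 1.10% ± 0.226 in the vitamin E group and 1.18% ± 0.158 in the controls (SD, n = 3), and the groups overlapped. miR-16-5p supplied 58.9% of the member counts summed over the 6 libraries, miR-15a 16.5%, miR-15c-5p 13.5%, miR-15b-5p 6.07% and miR-16c-5p 4.87%. The remaining 5 members are 3p rows, of which miR-16-2-3p supplied the most, 0.169% of the member counts.

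The order of the members' levels was the same in every library only in part. Mature miRNAs are of nearly uniform length, so CPM values can be set side by side, although adapter ligation favours some sequences over others. miR-16-5p exceeded miR-15a in 6 of 6 libraries, by 2.87 to 4.27 times. miR-15a exceeded miR-15c-5p in 5 of 6, the exception being control 1, and their CPM ranges overlapped. miR-15c-5p exceeded miR-15b-5p in 6 of 6 libraries, by 1.90 to 2.47 times. miR-15b-5p and miR-16c-5p changed places, with miR-15b-5p the higher in 3 of 6 libraries.

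Of the 10 members, 6 had enough reads to be tested, and 0 of the 6 passed the quasi-likelihood test of edgeR (adjusted p from 0.627 to 0.948, Benjamini-Hochberg over 238 miRNAs), against 0.42% of all tested miRNAs. None had an unadjusted p under 0.05 in this edgeR fit with TMM scaling, against 7.56% of all tested. DESeq2, limma-voom and the edgeR likelihood ratio test also called 0 members, beside 7, 1 and 4 calls over all 238. Their unadjusted p lay under 0.05 for 1, 0 and 0 members, beside 24, 17 and 19 of all 238. All 6 log2 fold changes of vitamin E over control were below 0 with TMM scaling, with a median of -0.28 beside a median of -0.07 over all 238, of which 54.2% were below 0. With library totals alone, miR-16-5p and miR-16c-5p lay above 0. Members share transcripts and may share reads, so the 6 values are not independent of each other.

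miR-16-5p, the most abundant guide of the family, stood at 7737, 7460 and 4446 CPM in vitamin E 1, 2 and 3, and at 6238, 8186 and 6400 CPM in control 1, 2 and 3. The single low library was vitamin E 3, control 2 was the highest, and the groups overlapped. It averaged 6548 ± 1825 CPM in the vitamin E group and 6941 ± 1081 CPM in the controls (SD, n = 3), with a log2 fold change of -0.08 (SE 0.28, 95% interval -0.73 to 0.56). Without vitamin E 3 the log2 fold change was 0.078, on the other side of 0.

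miR-16c-5p, from the gene beside MIR15C, was similarly level at 586, 595 and 455 CPM in vitamin E 1, 2 and 3, and 495, 633 and 562 CPM in control 1, 2 and 3. Vitamin E 3 was again the lowest and control 2 the highest library, as for miR-16-5p. Its log2 fold change was -0.05 (SE 0.24, 95% interval -0.61 to 0.51), and its highest library exceeded its lowest by 1.39 times, the narrowest range among the 6 tested members.

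miR-15a, from the gene beside MIR16-1, stood at 1810, 1983 and 1446 CPM in vitamin E 1, 2 and 3, and at 1625, 2104 and 2233 CPM in control 1, 2 and 3. The groups overlapped, with a log2 fold change of -0.19 (SE 0.25, 95% interval -0.77 to 0.39). With 1 library left out it ran from -0.40, without control 1, to -0.12, without vitamin E 3.

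miR-15b-5p and miR-15c-5p, the miR-15 guides of the SMC4 pair and of the MIR15C pair, gave the lowest log2 fold changes among the 6 tested members. miR-15b-5p stood at 551, 561 and 572 CPM in vitamin E 1, 2 and 3, and at 982, 586 and 874 CPM in control 1, 2 and 3. On the TMM scale the vitamin E libraries were nearly equal, with a coefficient of variation of 1.80% against 25.2% in control, and control 2 lay just above them. The place of control 2 above them depended on scaling, and the vitamin E libraries lay somewhat further apart on the deposited TPM. On the deposited TPM, miR-15b-5p stood at 558, 588 and 602 in vitamin E 1, 2 and 3, and at 845, 588 and 902 in control 1, 2 and 3. It averaged 561 ± 10.1 CPM in the vitamin E group and 814 ± 205 CPM in the controls (SD, n = 3), with a log2 fold change of -0.54 (SE 0.27, 95% interval -1.14 to 0.07) that did not pass the edgeR test (adjusted p = 0.627).

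miR-15c-5p had 1243, 1382 and 1084 CPM in vitamin E 1, 2 and 3, and 2233, 1402 and 1864 CPM in control 1, 2 and 3. Control 1 and control 3 were again the high libraries, and control 2 lay beside the vitamin E libraries. It averaged 1237 ± 149 CPM in the vitamin E group and 1833 ± 416 CPM in the controls (SD, n = 3), with a log2 fold change of -0.57 (SE 0.26, 95% interval -1.17 to 0.04) that likewise did not pass the edgeR test (adjusted p = 0.627).

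For these 2 of the 6 tested members the groups did not overlap on the TMM scale, both with vitamin E lower, where 13.9% of all 238 tested miRNAs lay apart without overlap, 5.04% lower and 8.82% higher. The separation depended on scaling. On the deposited TPM, which scale by library totals alone, the highest vitamin E library of miR-15b-5p was at 602 and the lowest control at 588, and for miR-15c-5p these values were 1450 and 1409, so both overlapped, as did the other 4 tested members. On that scale 13% of all tested miRNAs lay apart without overlap, 2.1% lower. Across the 18 alternatives run on these rows the log2 fold change stayed below 0 for both, from -0.72 to -0.39 for miR-15b-5p and from -0.72 to -0.44 for miR-15c-5p, and the adjusted p was never below 0.365.

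**Figure D1:**
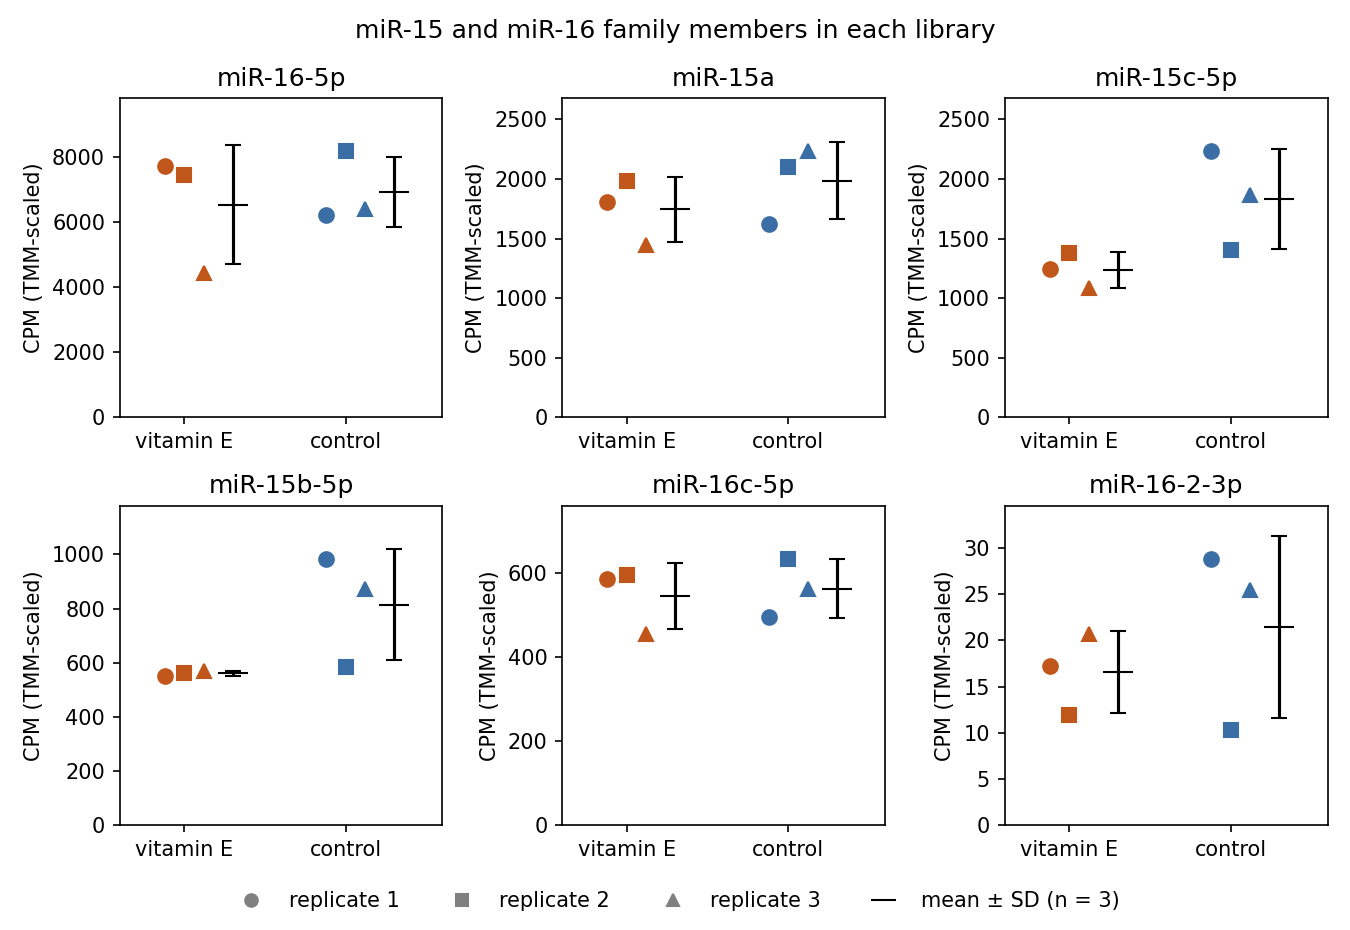
CPM on TMM-scaled library sizes (vertical axes, linear from 0) of the 6 tested members, with 1 point per library, vitamin E on the left and control on the right of each panel, and the mean ± SD (n = 3) beside the points. miR-15b-5p and miR-15c-5p lie lower with vitamin E, with control 2 close above, while miR-16-5p, miR-16c-5p and miR-15a overlap widely.

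**Figure D2:**
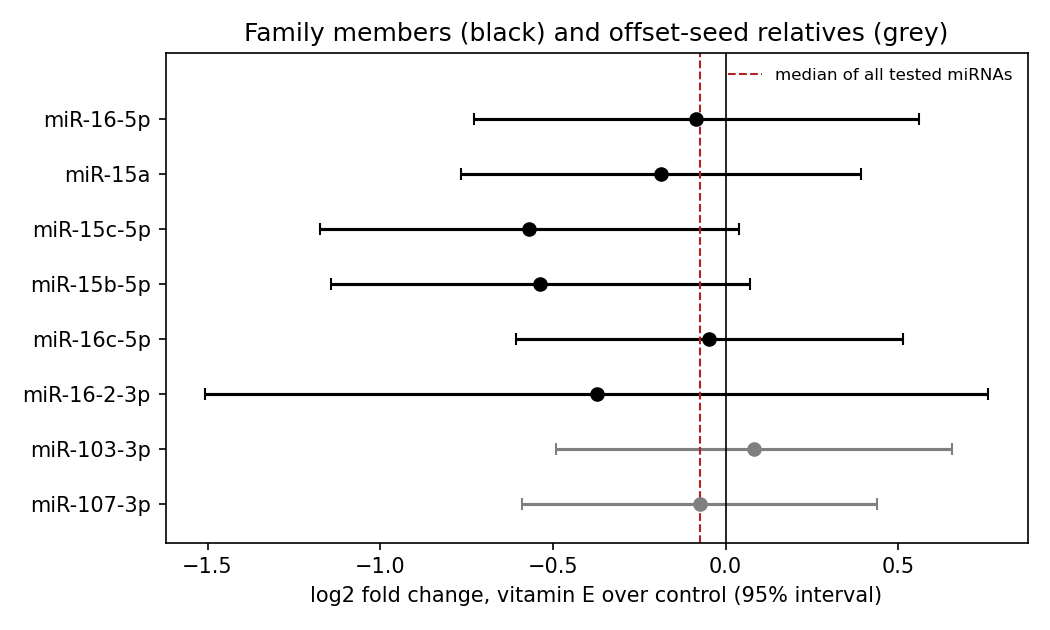
Log2 fold change of vitamin E over control (horizontal axis) with its 95% interval for the 6 tested members in black and miR-103-3p and miR-107-3p in grey; the dashed line marks the median of all 238 tested miRNAs, -0.07. Every interval crosses 0, and those of miR-15b-5p and miR-15c-5p end at 0.07 and 0.04.

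miR-16-2-3p, the passenger arm of the hairpin in SMC4 that lies beside miR-15b, had counts of 102, 88 and 133 in vitamin E 1, 2 and 3, and of 165, 52 and 193 in control 1, 2 and 3. In CPM this was 17.2, 11.9 and 20.7 with vitamin E and 28.8, 10.3 and 25.4 in control. Control 1 and control 3 were the highest libraries and control 2 the lowest, so the groups overlapped. This gave a log2 fold change of -0.37 (SE 0.50, 95% interval -1.51 to 0.76), and from -0.70, without control 2, to -0.21, without vitamin E 2 or without control 1, when 1 library was left out.

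The members did not all vary alike across libraries. To describe this, each member's log2 CPM was centred on its mean over the 6 libraries, and pairs were compared by the root mean square difference of these values, where a small value means like profiles. The most alike pairs were miR-15a with miR-16c-5p at 0.12, miR-15b-5p with miR-15c-5p at 0.12 and miR-16-5p with miR-16c-5p at 0.15. For miR-16-5p, which can come from MIR16-1 and MIR16-2, the difference was 0.20 with miR-15a and 0.48 with miR-15b-5p. It was 0.39 for miR-15c-5p with its gene neighbour miR-16c-5p. In control 1, miR-15b-5p and miR-15c-5p lay 0.56 and 0.59 above their own means, while miR-16-5p and miR-16c-5p lay at -0.08 and -0.16. A high control 1 was not particular to these members. On the cell cycle lists given below, miR-92-3p stood at 34181 CPM in control 1 and at 10032 and 11013 CPM in control 2 and 3. Other rows of these lists went the other way, such as let-7g-5p, lowest in control 1 at 3464 CPM. miR-16-2-3p was closest to miR-15b-5p, its gene neighbour, at 0.35, stood at 0.46 from miR-15c-5p, and was farthest from miR-16-5p at 0.75. These differences describe 6 libraries, and near-identical members may share reads.

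**Figure D3:**
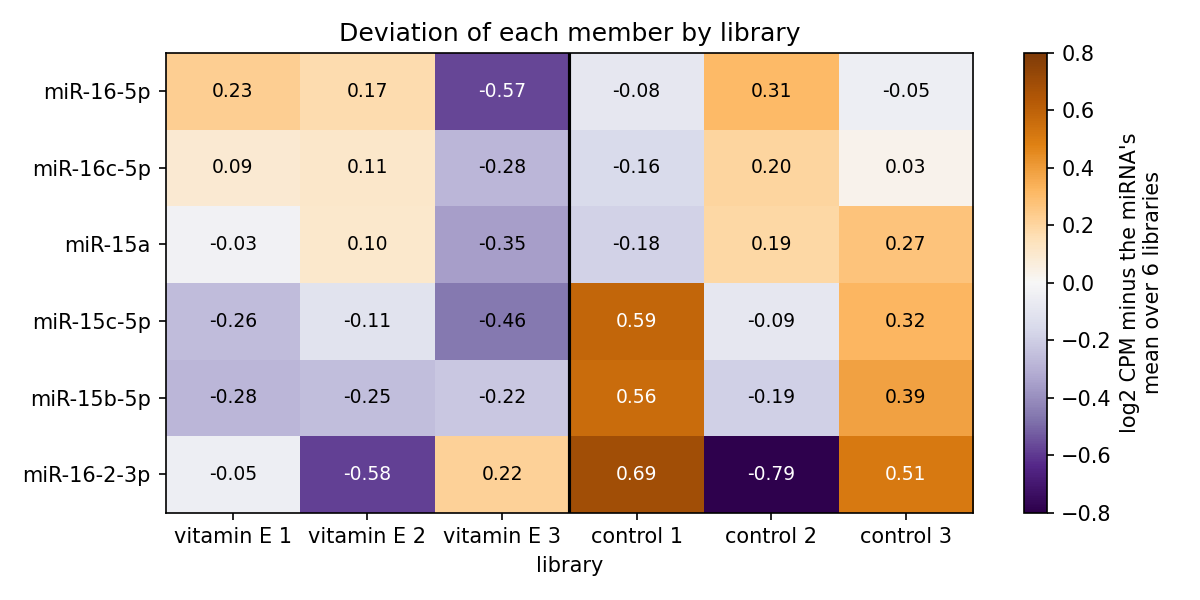
Deviation of each tested member (rows) from its own mean over the 6 libraries (columns, vitamin E left of the line), in log2 CPM; orange is above and purple below the mean. miR-15c-5p, miR-15b-5p and miR-16-2-3p are high in control 1 and control 3, and miR-16-5p and miR-16c-5p are high in control 2 and low in vitamin E 3.

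Ratios of members from neighbouring genes, taken within a library, do not depend on library scaling. These 3 ratios were chosen after the values had been seen. The permutation tests compared group means of the log2 ratios, whereas the means and SDs given are of the ratios themselves. miR-15c-5p over miR-16c-5p was 2.12, 2.32 and 2.38 in vitamin E 1, 2 and 3, and 4.51, 2.21 and 3.31 in control 1, 2 and 3. Control 2 fell among the vitamin E libraries, so the groups overlapped, with means of 2.28 ± 0.136 in the vitamin E group and 3.35 ± 1.15 in the controls (SD, n = 3; two-sided exact permutation p = 0.3, Benjamini-Hochberg adjusted over 3 ratios 0.7, where 0.1 is the smallest p possible). miR-15a over miR-16-5p was 0.234, 0.266 and 0.325 with vitamin E and 0.261, 0.257 and 0.349 in control (exact permutation p = 0.7). miR-15b-5p over miR-16-2-3p was 32.0, 47.2 and 27.6 with vitamin E and 34.2, 56.9 and 34.4 in control (exact permutation p = 0.5). The last 2 ratios likewise overlapped between groups; miR-16-5p can also come from MIR16-2, so the ratio of miR-15a to miR-16-5p does not describe MIR15A and MIR16-1 alone.

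**Figure D4:**
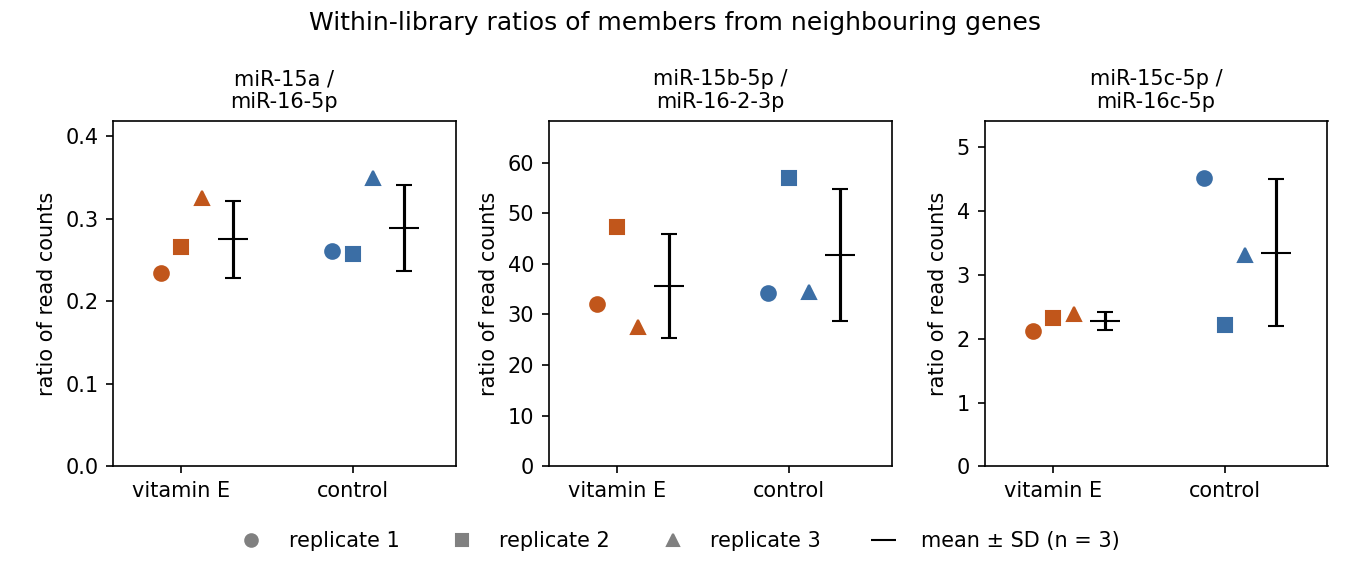
Ratio of read counts (vertical axes, linear from 0) of members from neighbouring genes in each library, vitamin E on the left and control on the right, with the mean ± SD (n = 3). The ratio of miR-15c-5p to miR-16c-5p is 2.12 to 2.38 with vitamin E and 2.21 to 4.51 in control, and the other ratios overlap as well.

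The 4 members with too few reads to test are 3p passengers. miR-15b-3p was counted 5, 5 and 7 times in vitamin E 1, 2 and 3, and 9, 3 and 13 times in control 1, 2 and 3. miR-15c-3p was counted 5, 5 and 2 times with vitamin E and 13, 5 and 8 times in control, a ratio of 0.430 on summed counts over TMM-scaled library sizes (exact 95% counting interval 0.197 to 0.882, which covers counting error only and not the spread between libraries). miR-16-1-3p was counted 4, 9 and 2 times with vitamin E and 3, 2 and 10 times in control, and miR-16c-3p 1, 4 and 1 times with vitamin E and 0, 1 and 4 times in control. The same ratio was 0.633 (0.321 to 1.22) for miR-15b-3p, 0.931 (0.424 to 2.04) for miR-16-1-3p and 1.12 (0.284 to 4.63) for miR-16c-3p. In CPM and in deposited TPM the groups overlapped for miR-15b-3p, miR-16-1-3p and miR-16c-3p. Those of miR-15c-3p did not, with 0.845 CPM in the highest vitamin E library and 0.990 CPM in the lowest control. Both of these values rest on 5 counts. The shares of miRNAs without overlap given above cover the 238 tested miRNAs, which do not include miR-15c-3p. A count of 0, as for miR-16c-3p in control 1, allows up to 3 counts or 0.450 CPM on the unscaled size of that library.

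Guides outnumbered passengers in every hairpin with both arms listed. The 3p arm of miR-15b made up 0.154% ± 0.035 of the reads of both arms in the vitamin E group and 0.152% ± 0.047 in the controls (SD, n = 3; exact permutation p = 1). For miR-15c the share was 0.048% ± 0.020 with vitamin E and 0.076% ± 0.023 in control (exact permutation p = 0.2), and for miR-16c it was 0.051% ± 0.034 with vitamin E and 0.042% ± 0.048 in control (exact permutation p = 0.8). miR-15a is listed under a single name with no arm, so it gave no such share.

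The copies of miR-16 differed in their passenger reads. miR-16-2-3p outnumbered miR-16-1-3p in all 6 libraries, and miR-16-1-3p made up 15 of 338 such reads summed over the vitamin E libraries and 15 of 425 summed over the controls. Per library its share ran from 1.48% (Wilson 95% interval 0.407 to 5.24) in vitamin E 3 to 9.28% (4.96 to 16.7) in vitamin E 2, and from 1.79% (0.609 to 5.12) in control 1 to 4.93% (2.70 to 8.83) in control 3. The means were 4.84% ± 4.01 in the vitamin E group and 3.47% ± 1.58 in the controls (SD, n = 3; exact permutation p = 0.8). Adjusted over the 4 arm and copy shares by the Benjamini-Hochberg method, the permutation p was 0.8 for miR-15c and 1 for the others. These shares count passengers, not the miR-16-5p guides that each copy supplies.

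When the 5 rows of 5p or unarmed members were summed to 1 row before fitting, an alternative chosen after the values had been seen, the family had a log2 fold change of -0.21 (SE 0.24), close to that of miR-15a.

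Relatives of the family were taken from a list of 9 names, of which miR-103 and miR-107 matched rows. Their seeds overlap that of miR-15 and miR-16 with a shift, and in GRCg7b their genes lie within PANK2, PANK3 and PANK1, which encode kinases of coenzyme A synthesis. miR-103-3p stood at 2577, 2288 and 2156 CPM in vitamin E 1, 2 and 3, and at 2490, 2430 and 1712 CPM in control 1, 2 and 3, with a log2 fold change of 0.08 (SE 0.25). miR-107-3p stood at 830, 830 and 848 CPM with vitamin E and 792, 866 and 983 CPM in control, with a log2 fold change of -0.07 (SE 0.22). Neither passed the test and both overlapped between groups; the passenger rows miR-103-2-5p and miR-107-5p had at most 5 counts in any library and were not tested.

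Lists of other miRNAs tied to the cell cycle in vertebrates likewise gave no call. Of the list that restrains it (miR-34, let-7, miR-26a and others), 17 of 20 names matched and 31 rows were tested, with 16 above 0, 15 below 0, 0 past the threshold and a median log2 fold change of 0.05. The range was -1.39 to 3.50, with miR-34b-5p the highest (edgeR adjusted p = 0.0865), at 0, 2 and 2 counts in control 1, 2 and 3. On the TMM scale 4 of the 31 rows were higher without overlap and 0 lower, beside 8.82% higher and 5.04% lower of all 238 tested. Of the list that promotes it (miR-17, miR-21, miR-221 and others), 16 of 19 names matched and 23 rows were tested, with 14 above 0, 9 below 0, 0 past the threshold and a median of 0.14. Here the range was -1.51 to 0.58, with 1 row higher and 1 lower without overlap. The listed name miR-222 matched no row, because its rows carry a letter. These rows, miR-222a and miR-222b-3p, were tested but are not in the counts, with log2 fold changes of -1.39 and 0.40. The median over all 238 tested miRNAs was -0.07.

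The miRNAs outside the family whose profile over the 6 libraries was most like that of miR-16-5p were miR-146b-3p at a root mean square difference of 0.16, the predicted miRNA novel_49 at 0.16, miR-17-3p at 0.17, novel_23 at 0.19 and miR-2131-5p at 0.23, against a median of 0.58 over the 232 tested miRNAs outside the family. miR-146b-3p stood at 76.7, 75.5 and 47.9 CPM in vitamin E 1, 2 and 3, and at 62.6, 93.1 and 51.3 CPM in control 1, 2 and 3. Within the family, miR-16c-5p ranked 1 and miR-15a ranked 6 among all 237 other tested miRNAs by this measure, whereas miR-15c-5p ranked 72, miR-15b-5p 95 and miR-16-2-3p 161.

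miR-16 is abundant in blood cells of mammals, and fewer cells of a type cannot be told apart from less RNA per cell in bulk tissue. On the leukocyte list 6 of 7 names matched, with 10 rows and none at 0 in all libraries, and the rows summed to 37311, 40835 and 31804 CPM in vitamin E 1, 2 and 3, and to 34537, 51031 and 30272 CPM in control 1, 2 and 3. As for miR-16-5p, control 2 was the highest library, and vitamin E 3 was the lowest of its group. A large part of that sum was 1 row, miR-146c-5p, at 31151 CPM in control 2. Rows of the list differed in profile: miR-146b-3p was highest in control 2, miR-142-5p in control 3 (9974 CPM), miR-223 in vitamin E 1 (784 CPM) and miR-142-3p in vitamin E 2 (327 CPM). On the erythroid list 2 of 3 names matched, with 3 rows and none at 0 in all libraries, and the rows summed to 3988, 3099 and 5295 CPM with vitamin E and 3283, 2927 and 1406 CPM in control, so the erythroid sum was highest in vitamin E 3, the library with the lowest miR-16-5p. On the deposited TPM the erythroid sums did not overlap, at 3250 to 5580 with vitamin E and 1452 to 2940 in control. These sums were mostly 1 row, miR-451, which made up 3839 of the 3988 CPM in vitamin E 1. It was the only erythroid row above 0, with a log2 fold change of 0.76. The other 2 rows lay below 0, miR-144-5p at -0.42 (SE 0.46) and miR-144-3p at -0.04 (SE 0.42). miR-144-5p was highest in control 1, at 172 CPM, whereas miR-144-3p, like miR-451, was highest in vitamin E 3, at 118 CPM. None of the 3 rows passed the edgeR threshold, so their directions are uncertain.

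Markers of other tissues also parted the groups. On the neural list 3 of 4 names matched, and none of their 6 rows was at 0 in all libraries. The rows summed to 163 to 181 CPM with vitamin E and 31.1 to 48.6 CPM in control, without overlap. Most of this sum was miR-9-5p, the 1 miRNA called over the whole table, so it largely restates that call. miR-9-5p averaged 148 CPM of a mean sum of 169 with vitamin E, and 31.5 of 37.0 in control. All 4 tested rows had a log2 fold change above 0, and those other than miR-9-5p averaged at most 8.93 CPM in either group. The liver list, miR-122, summed to 5.24 to 7.32 CPM with vitamin E and 12.4 to 20.8 CPM in control, again without overlap. The endothelial, striated muscle and epithelial sums overlapped between groups, at 20881 to 29959, 301 to 583 and 324 to 397 CPM with vitamin E and 24419 to 35493, 276 to 518 and 314 to 431 CPM in control. Sums can hide the rows: all 5 tested striated muscle rows had a log2 fold change above 0, with a median of 0.89. Most of the sum was miR-133a-3p, with a log2 fold change of 0.05. It averaged 363 CPM of a mean sum of 438 with vitamin E, and 351 of 398 in control. The other tested muscle rows averaged at most 40.6 CPM in either group. Among the 8 tested epithelial rows, 6 lay above 0 and 2 below, with a median of 0.57 and a range from -2.24 to 0.93. The row farthest from 0 was miR-205b at -2.24 (edgeR adjusted p = 0.333), lower with vitamin E without overlap on the TMM scale. It stood at 24.8, 30.8 and 12.8 CPM in vitamin E 1, 2 and 3. In control 1, 2 and 3 it stood at 48.6, 230 and 45.3 CPM, so control 2 was far above the rest. On the TMM scale 2 other epithelial rows were higher without overlap, beside 8.82% higher and 5.04% lower of all 238 tested. The 1 tested endothelial row lay below 0, and 0 rows of these 3 lists passed the edgeR threshold. The part of these tissue markers and of the blood cell markers in the family's values was not tested.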

How the data were processed

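The deposited table lists 667 mature miRNAs, 551 with chicken names and 116 predicted. The columns headed readcount hold raw counts, deposited as whole numbers for each miRNA. In the TPM columns the authors had divided each count by its library total and multiplied by 1e+06, as recomputing them showed (largest deviation 4.07e-10). Aligner, genome build, miRNA reference, counting rule and library kit were not given in the sources used here.

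Counts were fitted with edgeR 4.0.16 in R 4.3.3: TMM factors, filterByExpr by group (minimum count 10, minimum total 15), robust quasi-likelihood test and Benjamini-Hochberg adjustment over all 238 tested miRNAs at a threshold of 0.05. The fit was also run on simulated counts, whose changes were much larger than those of the members. That run does not show whether changes of the members' size would be found. Arm shares and log2 ratios were compared with exact permutation tests over 20 relabellings (SciPy 1.17.1). Intervals have a confidence level of 95%; counting intervals and floors (3 counts for a count of 0) cover counting error alone, because PCR copies of a molecule cannot be told from separate molecules here. Log2 fold changes have vitamin E on top.

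In all, 18 other fits were set down with the design (other scaling, filters, tools, a replicate block, each library left out), with DESeq2 1.42.0 and limma 3.58.1 among the tools, and 1 was added later. Named singly are all members, their seed relatives, the 5 miRNAs most like miR-16-5p in profile and any miRNA past the threshold; lists are given as counts and sums. miR-26a-5p and the examples named for lists were picked with their values known. The members and lists were chosen with earlier results of these data known. RefSeq's table of chicken genes (GRCg7b) was used for names and neighbours only. No pair of libraries of the same group agreed within sampling noise, and pairs across the groups were not compared.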

Additional observations from a re-analysis of the deposited data

How the results depend on the processing

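No member was called in any of the 18 alternative fits set down with the design or the 1 added later, and with no low-count filter, where all 10 members were tested, the smallest unadjusted p among them was 0.0895. The log2 fold changes of miR-15a, miR-15b-5p, miR-15c-5p and miR-16-2-3p kept their sign in every alternative fit that held them. That of miR-16-5p was 0.010 with library totals alone and -0.23 to 0.078 with 1 library left out. That of miR-16c-5p was 0.047 with library totals alone, 0.059 in limma on log2(TPM + 1) and 0.059 on log2(TPM + 0.1), and -0.21 to 0.024 with 1 library left out. The median shift of all tested miRNAs was 0.107 on the log2 scale with library totals alone, and 0.129 and 0.132 in limma on TPM. Without control 2, miR-15b-5p and miR-15c-5p had unadjusted p of 0.0216 and 0.0218 (edgeR quasi-likelihood, adjusted p = 0.365 for both). Of all 248 miRNAs in that fit, 31 had an unadjusted p under 0.05, beside 18 of 238 in the main fit. In the same test miR-15c-5p had an unadjusted p of 0.0460 with median-of-ratios factors (adjusted p = 0.550). It was 0.0467 with upper-quartile factors (adjusted p = 0.614) and 0.0375 with a stricter filter of 10 CPM (adjusted p = 0.648). In these fits, in the order given, 20 of 238, 18 of 238 and 11 of 164 miRNAs lay under 0.05. The main fit gave unadjusted p of 0.0764 for miR-15b-5p and 0.0626 for miR-15c-5p (edgeR quasi-likelihood). By the same test they were 0.151 and 0.120 with library totals alone, and 0.173 and 0.133 without vitamin E 1.

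Over the whole table, 1 call became 0 with upper-quartile factors, 8 without the filter, 7 with DESeq2, 4 with the likelihood ratio test, 3 with limma on log2(TPM + 1), 5 with the replicate number as a block and 0 to 1 with 1 library left out; the cause was not tested. Both groups use the numbers 1 to 3, which pair nothing by the labels; deviations from the group means of libraries with the same number correlated at -0.16, 0.026 and -0.023, and 1 of 6 libraries was closest to its own number. Under the block miR-15b-5p had a log2 fold change of -0.50 and miR-15c-5p of -0.55.

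With only named miRNAs as denominator the members held a mean of 1.22% in the vitamin E group (0.940% to 1.40% per library). In the controls the mean was 1.34% (1.11% to 1.47% per library), so the groups overlapped. With 1 library left out, the difference in 3p share (vitamin E minus control) was -0.023 to 0.024 percentage points for miR-15b, -0.037 to -0.015 (without control 1) for miR-15c and -0.011 to 0.036 for miR-16c, and the difference in miR-16-1-3p share was -0.84 to 3.05. The log2 ratio difference was -0.20 to 0.074 for miR-15a over miR-16-5p, -0.45 to 0.017 for miR-15b-5p over miR-16-2-3p and -0.77 to -0.25 for miR-15c-5p over miR-16c-5p. Depth limits the 3p rows, at 0 to 13 counts per library apart from miR-16-2-3p.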
